A study of Homo sapiens with 16 samples.

Results

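The expression profile after the compound T4 was set against that after the compound T5 given one dose step lower, in 4 shifted pairs of libraries. The pairs were T4 at 2 µM with T5 at 0.5 µM, T4 at 5 µM with T5 at 2 µM, T4 at 10 µM with T5 at 5 µM, and T4 at 20 µM with T5 at 10 µM. They use 8 of the 16 libraries of the series and are defined by dose, to ask what remained between the compounds once T5 was given at the lower dose. The T4 dose was 4, 2.5, 2 and 2 times the T5 dose in the 4 pairs, so every difference below mixes the compound with the dose and with the change of that ratio.

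All libraries came from U2OS cells, an established human osteosarcoma line, treated for 6 h in culture. The series describes T4 and T5 as modulators of alternative polyadenylation. Each dose of each compound had 1 library, the DMSO solvent control also had 1, and the labels do not say whether the dishes were separate cultures. The p-values therefore measure how far single libraries scatter around a mean or a line, which may be technical. Around a mean, the scatter also holds any steady change of the difference along the pairs. T4 and T5 are code names, and no structure is given here.

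Alternative polyadenylation is the choice among several places at which a new transcript can be cleaved and polyadenylated. The cleavage is made by a set of protein complexes that also take part in ending transcription. Short-lived transcripts, such as those of immediate early genes, kinase inhibitors and mitotic regulators, are known to respond within hours when transcription or RNA processing is disturbed.

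Values are FPKM, fragments mapped to a gene scaled to its length and to the size of the library. Differences are T4 minus T5 on the log2(FPKM + 1) scale, which understates the change of low genes. The 10600 genes that averaged 1 FPKM or more across the 16 libraries were tested. Total depth is unknown, and the relative depth read from steps in low values was 0.637 to 1.0 of that of DMSO in the 8 libraries. Of the bone and mesenchymal markers, COL1A1, SPARC and VIM were at 236 to 570.2 FPKM in the 8 libraries. RUNX2, ALPL and SPP1 were at 0.775 to 4.78 FPKM. IBSP was listed at 0, and SP7, BGLAP and COL1A2 were under 0.2 FPKM. Of the epithelial markers KRT8 and KRT18 were at 112 to 236 FPKM and CDH1 was under 0.2. The summed FPKM of 7 blood cell markers was 2.31 to 3.44 with T4 and 2.12 to 3.38 with T5, most of it CD68, with CD3E and HBB listed at 0.

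The promoters of 6 genes whose difference between the compounds changed along the pairs are shown first, since these genes are described in most detail below; in all 6 the difference fell. They are the early transcription factors FOS, EGR1 and JUNB, the secreted factors CXCL8 and IL11, and HEXIM1, an inhibitor of the elongation kinase P-TEFb. Each line gives the 250 bases before the start site on the gene's strand, 5′ to 3′, from RefSeq on GRCh38.p14, matched by symbol for 6 of 6 genes, while the expression values were made on hg19. Capitals mark TATAAA, the AP-1 site TGANTCA, the serum response factor site (CArG box) and the NF-kB consensus, each searched on both strands.
FOS, chr14:75278578-75278827: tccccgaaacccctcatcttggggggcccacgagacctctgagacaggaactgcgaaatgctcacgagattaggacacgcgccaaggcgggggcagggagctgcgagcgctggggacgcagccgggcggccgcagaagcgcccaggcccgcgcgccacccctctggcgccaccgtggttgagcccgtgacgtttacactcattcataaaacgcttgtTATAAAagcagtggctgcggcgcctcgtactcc
EGR1, chr5:138465229-138465478: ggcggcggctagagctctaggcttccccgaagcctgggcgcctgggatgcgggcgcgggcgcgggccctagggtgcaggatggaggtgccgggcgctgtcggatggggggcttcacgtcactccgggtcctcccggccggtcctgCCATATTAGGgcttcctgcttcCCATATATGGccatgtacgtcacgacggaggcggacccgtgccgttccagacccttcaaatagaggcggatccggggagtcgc
JUNB, chr19:12791236-12791485: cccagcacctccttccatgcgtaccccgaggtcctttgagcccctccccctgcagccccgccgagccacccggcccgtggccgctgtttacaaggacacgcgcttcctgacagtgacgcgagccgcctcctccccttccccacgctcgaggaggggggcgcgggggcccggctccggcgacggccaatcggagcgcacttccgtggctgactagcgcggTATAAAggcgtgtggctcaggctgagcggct
CXCL8, chr4:73740319-73740568: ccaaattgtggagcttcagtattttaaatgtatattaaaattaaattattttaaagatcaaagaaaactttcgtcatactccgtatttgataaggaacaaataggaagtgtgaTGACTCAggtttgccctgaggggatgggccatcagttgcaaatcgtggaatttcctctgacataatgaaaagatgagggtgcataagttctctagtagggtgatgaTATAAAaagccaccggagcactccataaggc
IL11, chr19:55370464-55370713: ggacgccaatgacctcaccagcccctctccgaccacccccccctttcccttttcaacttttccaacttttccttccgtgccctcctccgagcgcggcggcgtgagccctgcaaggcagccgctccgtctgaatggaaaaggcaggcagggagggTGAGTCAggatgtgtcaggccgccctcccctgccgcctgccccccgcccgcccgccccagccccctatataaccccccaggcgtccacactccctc
HEXIM1, chr17:45148225-45148474: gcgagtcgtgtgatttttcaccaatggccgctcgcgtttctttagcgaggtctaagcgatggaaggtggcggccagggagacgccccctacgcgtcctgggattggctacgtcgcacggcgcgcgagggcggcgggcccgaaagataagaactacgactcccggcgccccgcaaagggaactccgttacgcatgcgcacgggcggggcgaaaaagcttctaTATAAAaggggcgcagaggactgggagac
The FOS, JUNB, CXCL8 and HEXIM1 windows each hold 1 TATAAA, a word found in 10.7% of the 35116 promoter windows in the table. EGR1 holds 2 CArG boxes, present in 1.16% of windows. CXCL8 and IL11 hold 1 AP-1 site each, present in 6.57% of windows. None of the 6 holds the NF-kB consensus, which 5.21% of windows hold, or the cyclic AMP element TGACGTCA, which 1.65% hold. IL11 lies on the minus strand and the other genes on the plus strand. A match describes letters in a window and is not a bound site, and a window without a match can hold a variant that the search misses.

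The distance between the compounds was largest in the last pair, and its direction differed between low and high doses. Over all genes the root mean square difference was 0.39, 0.34, 0.41 and 0.46 in the 4 pairs from low to high dose. It was 0.243, 0.208, 0.294 and 0.381 without 46 genes listed at 0 in at least 1 of the 10 T4 and T5 libraries and at 5 FPKM or more in another. At least a 2-fold difference, 1 on the log2(FPKM + 1) scale, was seen for 23 genes with T4 higher (0.217% of those tested) and 14 with T4 lower (0.132%) in the first pair. The second pair had 8 higher (0.0755%) and 13 lower (0.123%), the third 9 higher (0.0849%) and 84 lower (0.792%), and the last 21 higher (0.198%) and 254 lower (2.4%). With a pseudocount of 0.1 the third pair had 36 higher and 211 lower, and the last 121 and 524. Large differences thus went both ways at low doses and mostly towards lower values with T4 in the last 2 pairs. Each of these counts compares 2 libraries and has no replicate check.

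**Figure D1:**
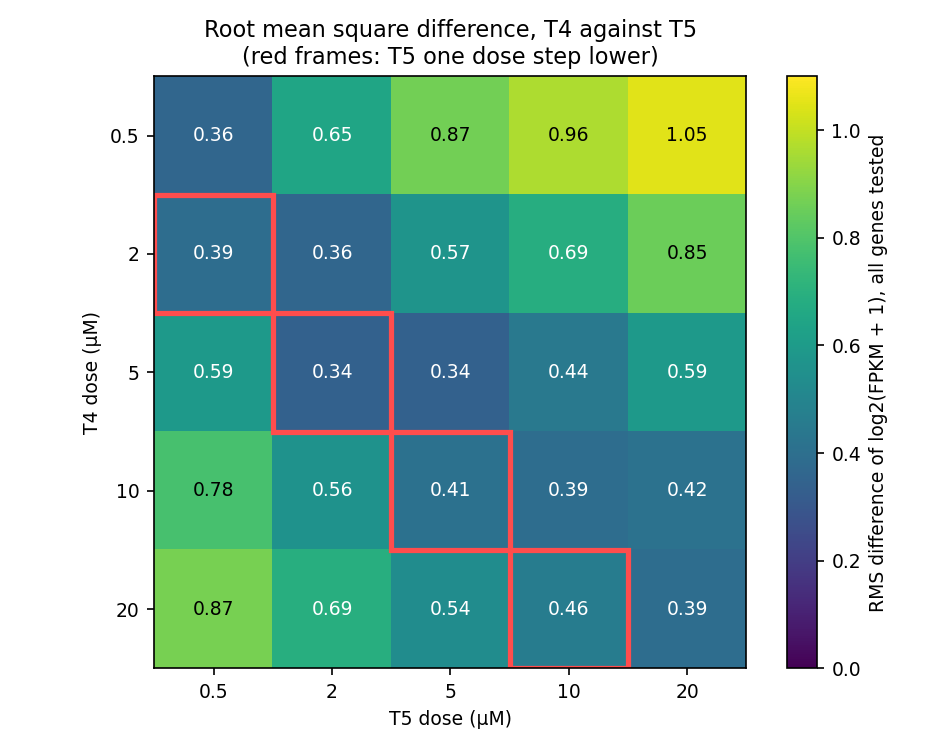
Root mean square difference of log2(FPKM + 1) over 10600 genes for each T4 dose against each T5 dose (µM), 1 library per dose, with frames around the pairs in which T5 was one step lower. The framed values run from 0.34 to 0.46, and those at the same dose of 2 to 20 µM from 0.34 to 0.39.

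Lowering T5 by one step did not bring the profiles closer at most doses. T4 at 2 µM was at 0.36 from T5 at 2 µM and 0.39 from T5 at 0.5 µM, T4 at 10 µM at 0.39 from the same dose of T5 and 0.41 from the lower dose, and T4 at 20 µM at 0.39 and 0.46. T4 at 5 µM was at 0.34 from both T5 at 2 µM and T5 at 5 µM. Without the 46 genes the distances from the same dose of T5 were 0.225, 0.235, 0.253 and 0.260 at 2, 5, 10 and 20 µM, so the lower T5 dose was nearer at 5 µM only. These distances are descriptions, and libraries are shared between them.

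No gene passed the test of the mean difference over the 4 shifted pairs. With limma and Benjamini-Hochberg adjustment at 0.05, 0 genes were called higher and 0 lower with T4 (0% of 10600 each), and the smallest adjusted p was 0.206. At an unadjusted p under 0.05 there were 1811 genes (17.1%), 634 higher (5.98%) and 1177 lower (11.1%). At the same dose, with T4 and T5 both at 2, 5, 10 and 20 µM, limma called 3430 genes (32.4%), 2674 higher (25.2%) and 756 lower (7.13%), but without pairing by dose it called 0. Median centring turned the same-dose split to 1344 higher and 2508 lower, and quantile normalization gave 1551 and 1233. Both comparisons use the same T4 libraries and 3 of the T5 libraries. By construction a gene's mean shifted difference equals its mean same-dose difference plus the difference of T5 at 20 µM from T5 at 0.5 µM divided by 4. The absence of calls also depended on the fit: with pair order as a covariate limma called 1315 genes higher and 1834 lower, and without the first pair 266 higher and 622 lower.

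A modest difference of constant sign was seen in a minority of genes. T4 was higher in all 4 pairs for 1202 genes (11.3%) and lower in all 4 for 1406 (13.3%), against 3910 (36.9%) and 1606 (15.2%) at the same dose. The genes lower with T4 in every shifted pair had a median difference from DMSO of -1.35 with T4 at 20 µM and of -1.05 with T5 at 10 µM, against -0.24 and -0.34 over all genes. That T4 lay below T5 here is fixed by the choice of these genes. Their median at the same dose was 0.07, and that of all genes 0.05. A difference of at least 0.5 in every pair was found for 1 gene, GEMIN6, with T4 lower (0.00943%), and for 0 genes with T4 higher (0%).

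GEMIN6 encodes a subunit of the SMN complex, which assembles the small nuclear ribonucleoproteins of the spliceosome. Its FPKM was 12.1, 4.15, 3.16 and 2.55 with T4 at 2, 5, 10 and 20 µM, and 18.3, 13.03, 6.03 and 4.09 with T5 at 0.5, 2, 5 and 10 µM. T4 was lower in each pair, by most in the second, and DMSO was at 29.9. The mean difference was -0.82 ± 0.17 (SE of the fit, 4 pairs; limma adjusted p = 0.206), and at the same dose it was -0.23 ± 0.07 (limma adjusted p = 0.0610). With median centring no gene had 4 differences of at least 0.5.

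MEPCE, the enzyme that caps the 7SK RNA which holds P-TEFb inactive, was also lower with T4 in all pairs. It was at 9.31, 4.41, 2.25 and 1.93 FPKM with T4 and at 13.6, 7.11, 4.26 and 3.17 with T5 one step lower. The 4 differences were -0.50, -0.58, -0.69 and -0.51, with a mean of -0.57 ± 0.07 and a 95% interval of -0.76 to -0.39 before adjustment over genes (limma adjusted p = 0.206). At the same dose the mean was -0.01 ± 0.11.

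CSTF1, part of the factor that binds RNA downstream of the cleavage site, followed the same course. It was at 8.80, 4.08, 1.61 and 0.718 FPKM with T4 and at 11.9, 6.23, 3.17 and 1.64 with T5. The mean difference was -0.55 ± 0.08 (limma adjusted p = 0.206), and 0.19 ± 0.09 at the same dose. PTRH2, a mitochondrial peptidyl-tRNA hydrolase, had a mean of -0.55, BMP4, a secreted growth factor, -0.68, and TNFRSF1A, a receptor of tumour necrosis factor, -0.43. The exosome subunit EXOSC9 and RBM7, an adaptor that brings transcripts to the nuclear exosome, had means of -0.39 and -0.50. None of these passed the threshold after adjustment.

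Among genes higher with T4 in all pairs, RPRD1A, which binds the tail of RNA polymerase II, was at 3.99, 5.48, 7.63 and 9.66 FPKM with T4 and at 3.30, 3.82, 5.19 and 6.86 with T5. The mean difference was 0.39 ± 0.08, against 0.09 ± 0.04 at the same dose. CXCL14, a chemokine, was at 9.62, 12.1, 13.8 and 16.8 with T4 and at 6.39, 9.0, 11.2 and 13.8 with T5, a mean of 0.36 ± 0.07. For both genes the level was higher at each higher dose of either compound among these 8 libraries, whereas GEMIN6, MEPCE and CSTF1 were lower at each higher dose. CCL2, a chemokine that draws monocytes, had a mean of 0.59 ± 0.12, with differences of 0.77, 0.68, 0.78 and 0.12. The limma adjusted p was 0.206 for all 3. ARHGAP11B had a mean of 0.43 ± 0.09, but its reads cannot be separated with certainty from those of its near-identical paralog ARHGAP11A.

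**Figure D2:**
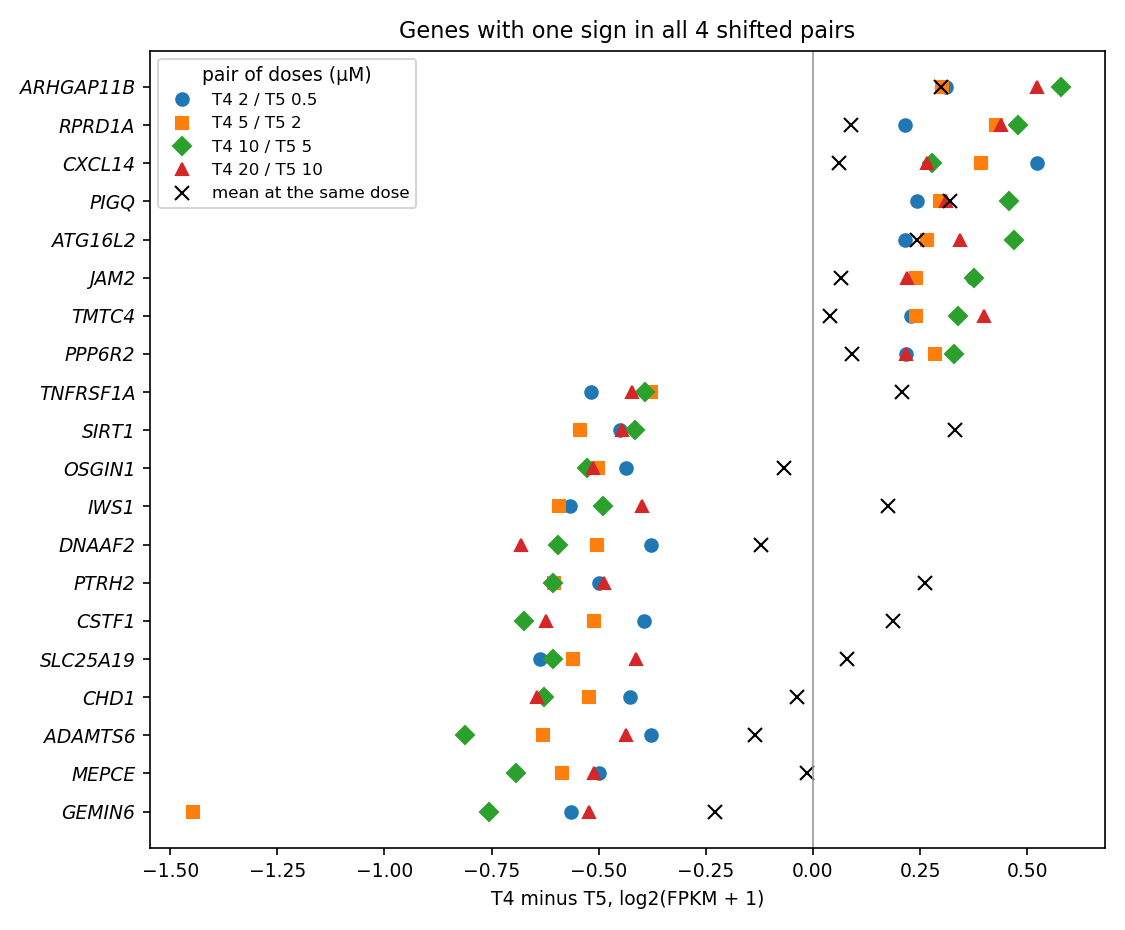
T4 minus T5 on the log2(FPKM + 1) scale in each of the 4 shifted pairs (coloured symbols, doses in µM) and the mean over 4 same-dose pairs (crosses) for the 12 lower and 8 higher genes with the largest smallest difference. The symbols of each gene lie on 1 side of 0 by the choice of genes, while the cross of MEPCE lies at -0.01 and that of CSTF1 at 0.19.

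A few genes differed by a like amount in the shifted pairs and at the same dose. EIF1B, a paralog of the start-codon selection factor EIF1 with which it may share reads, had the lowest mean among genes with T4 lower in every shifted pair, short RNAs, pseudogenes and genes without a symbol left aside. It was at 13.6, 7.64, 4.12 and 2.12 FPKM with T4 at 2 to 20 µM, while T5 at 0.5, 2, 5 and 10 µM gave 17.1, 13.4, 11.6 and 11.4, and T5 at 20 µM gave 13.2. With T4 the level was thus lower at each higher dose, and with T5 it stayed between 11.4 and 13.4 from 2 µM on. The mean shifted difference was -1.09 ± 0.28 (95% interval -1.78 to -0.39, limma adjusted p = 0.208). The same-dose mean was -0.999 ± 0.34 (limma adjusted p = 0.0683; 0.0303 with median centring). Along the pairs the difference of EIF1B fell by 1.68 ± 0.14 (limma adjusted p = 0.00117).

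C9orf40 was at 2.53, 1.78, 1.34 and 1.26 FPKM with T4 and at 3.30, 3.28, 2.81 and 2.83 with T5, lower with T4 in every pair. Its mean was -0.59 ± 0.10 over the shifted pairs and -0.45 ± 0.08 at the same dose, where it was called (limma adjusted p = 0.0116). CHAC1, which degrades glutathione, had a mean of -0.72 ± 0.16 and of -0.50 ± 0.09 at the same dose (limma adjusted p = 0.0146). On the higher side, SLC25A37, the mitochondrial iron importer mitoferrin, was at 3.01, 3.86, 4.94 and 4.76 with T4 and at 2.96, 2.999, 2.04 and 1.33 with T5. Its mean of 0.64 ± 0.23 was the highest of the genes with T4 higher in every pair. That ranking leaves aside short RNAs, pseudogenes and genes without a symbol. The same-dose mean of SLC25A37 was 0.79 ± 0.21 (limma adjusted p = 0.0383). PIGQ, an enzyme of membrane anchor synthesis, and TRA2A, a splicing regulator, had means of 0.33 ± 0.07 and 0.25 ± 0.05 in the shifted pairs. At the same dose they were higher by 0.32 and 0.40 (limma adjusted p of 0.00802 and 0.00677). In the shifted pairs none of these 6 genes passed after adjustment.

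The difference between the compounds changed along the pairs for many genes. The paired difference was fitted on the order of the pairs, a fit added after the mean had given no call, and scaled to the change from the first to the last pair. Limma called 3964 genes (37.4%), of which the difference rose for 2609 (24.6%) and fell for 1355 (12.8%). It was higher at every step for 2689 genes (25.4%) and lower at every step for 1665 (15.7%). For 348 genes (3.28%) it turned from at least 0.2 in the first pair to -0.5 or below in the last, and for 476 (4.49%) from -0.2 or below to at least 0.5. Along the 4 same-dose pairs limma called 0 genes (0%), with 1461 at an unadjusted p under 0.05 (13.8%). Whether the shifted and same-dose changes differ was not tested.

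These counts depended on the scaling, the filter and the first pair. Centring each library on its median turned the split into 1486 rising and 2924 falling, as it moved the median change over all genes from 0.11 to -0.10, and quantile normalization gave 1713 and 1508. Without the first pair 92 were rising and 210 falling, and when all genes with any FPKM above 0 entered the fit, 0 were called, those named below included. A change without a pair spans the pairs that remain. With T5 read by interpolation at 0.4 times the T4 dose, which keeps the dose ratio equal in all pairs, 1669 were rising and 1281 falling. Interpolation averages neighbouring T5 doses, so its pairs share T5 libraries, while the fit treats them as independent.

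The genes with a falling difference had a median difference from DMSO of 0.42 with T4 at 2 µM and 0.14 at 20 µM, and of 0.22 with T5 at 0.5 µM and 0.59 at 10 µM. Between these doses the median was smaller at the higher T4 dose and larger at the higher T5 dose. T5 was read here to 10 µM only. From 10 to 20 µM the median step of the falling group was -0.29 with T5 and -0.27 with T4. The groups were chosen by differences that use these same libraries, so the contrast is partly fixed by the choice. The rising genes had medians of -0.68 and -0.75 with T4 at 2 and 20 µM. With T5 at 0.5 and 10 µM their medians were -0.36 and -1.17. Over the 4 pairs the median difference went from 0.21 to -0.54 in the falling group and from -0.30 to 0.37 in the rising group, by the way they were chosen.

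Among the early transcription factors of the AP-1 family, 8 of 9 measured genes fell in difference along the pairs and 0 rose. Over all genes 12.8% fell and 24.6% rose, and the median change was 0.11 against -1.18 for this family. FOS was at 24.96, 61.7, 113 and 154 FPKM with T4 at 2, 5, 10 and 20 µM and at 9.41, 50.4, 122 and 205 with T5 one step lower, with DMSO at 1.13. T4 was higher in the first 2 pairs and lower in the last 2, and the difference fell by 1.67 ± 0.22 (SE of the fit, 4 pairs; limma adjusted p = 0.00420). JUNB was at 35.2, 68.6, 131 and 161 with T4 and at 14.01, 45.3, 83.1 and 176 with T5. T4 was higher in 3 pairs, by 1.27 in the first, and the difference in the last was -0.13, a change of -1.24 ± 0.21 (limma adjusted p = 0.00761).

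ATF3, a stress-induced member of the same family, took another course. It was at 19.6, 18.1, 10.6 and 5.32 FPKM with T4 and at 14.1, 26.6, 26.97 and 21.02 with T5. With T4 it was lowest at the highest dose, with DMSO at 4.64, while T5 at 20 µM gave 9.63. The difference fell by 2.25 ± 0.16 (limma adjusted p = 0.000737). JUND and FOSL1 fell by 1.86 and 1.18, and FOSB, the member that was not called, had a change of -0.20. JUND was at 7.56, 10.9 and 8.74 FPKM with T5 at 5, 10 and 20 µM, highest in the 10 µM library of the last pair.

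Of the other early genes 11 of 15 measured fell and 0 rose, where 12.8% of all genes fell and 24.6% rose. Their median change was -0.84. EGR1, a zinc finger factor induced with FOS, was at 73.99, 163, 271 and 332 FPKM with T4 and at 29.1, 146, 322 and 429 with T5. Its difference went from 1.32 to -0.37 and fell by 1.64 ± 0.29 (limma adjusted p = 0.00879). NR4A1, an orphan nuclear receptor, was at 7.60, 8.65, 8.80 and 6.67 with T4 and at 4.76, 9.04, 14.8 and 18.4 with T5. It was nearly level along the T4 doses and higher at each higher T5 dose, and the difference fell by 1.91 ± 0.12 (limma adjusted p = 0.000667). SRF, the factor that drives many early genes, had a change of 0.00 and IER2 one of -0.42, and neither was called.

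Among NF-kB targets and chemokines 6 of 14 fell and 0 rose, where 12.8% of all genes fell and 24.6% rose. Their median change was -0.49. CXCL8, the neutrophil chemokine, was at 15.7, 44.8, 88.1 and 92.5 FPKM with T4 and at 6.56, 23.4, 65.4 and 108 with T5, higher with T4 in 3 pairs and lower in the last. The difference fell by 1.37 ± 0.14 (limma adjusted p = 0.00228). IL11, a cytokine of the interleukin 6 family, was at 16.1, 30.4, 46.6 and 40.2 with T4 and at 10.5, 31.5, 71.02 and 120 with T5, a change of -2.08 ± 0.14 (limma adjusted p = 0.000737). T5 at the lower dose gave more IL11 in the last 3 pairs, and at the same dose the mean difference was -1.24 ± 0.09 (limma adjusted p = 0.00637). CXCL3 fell by 1.92 in difference, with reads that close relatives in its gene cluster may share. NFKB1, NFKB2 and RELB, subunits of NF-kB itself, had changes of 0.09, 0.03 and 0.12 and were not called.

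With the dose ratio held equal by interpolation the changes of FOS, EGR1, JUNB and CXCL8 were smaller. The interpolated pairs share T5 libraries, so the p-values of this fit are descriptions only. FOS then fell by 0.66 (limma adjusted p = 0.00690) and EGR1 by 0.73 (0.00321), while JUNB at -0.37 and CXCL8 at -0.54 were no longer called (limma adjusted p of 0.244 and 0.220). The change of IL11 was then -1.32, and that of CXCL3 -1.22. Without the first pair EGR1 at -0.52 and JUNB at -0.71 were not called either (limma adjusted p of 0.0567 and 0.123), nor was JUNB at -0.62 without the last pair (0.0843). HEXIM1, TOB1 and ATF3 fell by 2.36, 2.35 and 2.08 under the interpolation.

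HEXIM1 had the largest change among the elongation kinases and 7SK regulators. It was at 47.4, 38.5, 18.1 and 6.93 FPKM with T4 at 2, 5, 10 and 20 µM and at 38.7, 60.98, 51.5 and 31.7 with T5 at 0.5, 2, 5 and 10 µM. T4 at 20 µM lay below DMSO, which was at 8.44, as did T5 at 20 µM, at 7.23. The difference went from 0.28 to -2.04 and fell by 2.34 ± 0.13 (limma adjusted p = 0.000667). The mean at the same dose was -0.40 ± 0.11 (limma adjusted p = 0.0386).

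TOB1, an antiproliferative factor that recruits deadenylases, shared this shape. It was at 22.9, 21.7, 12.4 and 5.39 FPKM with T4 and at 15.8, 28.8, 31.6 and 24.3 with T5, and the difference fell by 2.51 ± 0.12 (limma adjusted p = 0.000667). RGS16, a brake on G protein signalling, was at 11.96, 15.95, 12.7 and 6.96 with T4 and at 6.24, 19.2, 26.95 and 26.7 with T5, a change of -2.61 ± 0.14 (limma adjusted p = 0.000667). For HEXIM1, TOB1 and RGS16 T4 was higher in the first pair and lower in the other 3, and the T4 and T5 values overlapped. CLK1, a kinase of splicing factors, fell by 1.92 and SAT1, which acetylates polyamines, by 2.5.

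**Figure D3:**
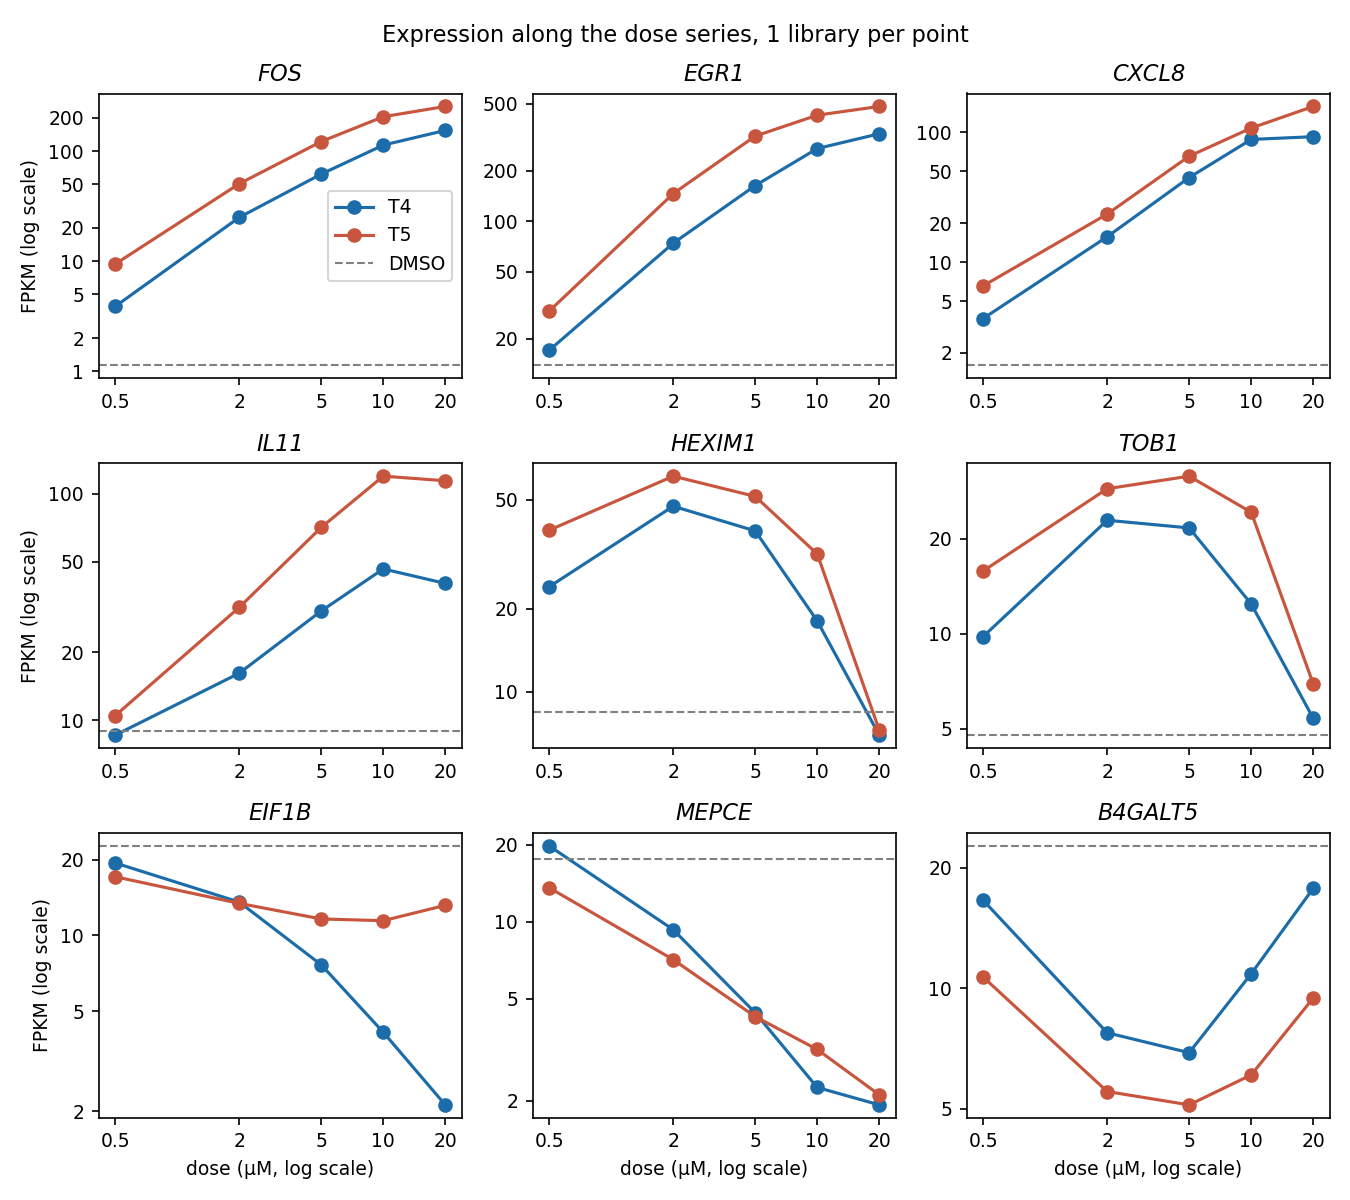
FPKM (log scale) against dose (µM, log scale) of T4 and T5 for 9 genes, 1 library per point, with the DMSO level dashed. FOS, EGR1 and CXCL8 were higher at each higher dose of both compounds, HEXIM1 and TOB1 peaked at 2 to 5 µM, and EIF1B was at 2.12 with 20 µM T4 and at 13.2 with 20 µM T5.

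Among 25 p53 targets 9 fell in difference and 3 rose, where 12.8% of all genes fell and 24.6% rose, with a median change of -0.16. CDKN1A, the p21 inhibitor of cyclin-dependent kinases, was at 56.03, 49.7, 38.5 and 25.5 FPKM with T4 and at 41.8, 78.2, 87.02 and 62.6 with T5, a change of -1.66 ± 0.27 (limma adjusted p = 0.00692; -0.62 and 0.0784 without the first pair). T4 was higher in the first pair and lower in the other 3. PMAIP1, the proapoptotic NOXA, fell by 1.51, while MDM2, the ubiquitin ligase of p53, had a change of 0.34 and was not called. TNFRSF10B, a death receptor of the TRAIL ligand, rose by 1.26 ± 0.13 (limma adjusted p = 0.00229), from a difference of -0.32 to 0.92.

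Of 13 integrated stress response genes 8 fell and 1 rose, of 12 unfolded protein response genes 6 fell and 1 rose, and of 8 heat shock genes 5 fell and 0 rose, where 12.8% of all genes fell and 24.6% rose. With quantile normalization 3 heat shock genes fell and 2 rose, where 1508 of all 10600 genes fell and 1713 rose. DDIT4, a brake on mTOR signalling, changed by -1.82 and XBP1, a factor of the unfolded protein response, by -0.92, and without the first pair neither was called (-0.83 and -0.69, limma adjusted p of 0.0544 and 0.0604). HMOX1, which degrades haem, was at 14.6, 9.44, 4.61 and 1.82 FPKM with T4 and at 15.7, 16.4, 12.2 and 9.22 with T5, a change of -1.74 ± 0.12 (limma adjusted p = 0.000737). CCNE1, the cyclin of the start of S phase, and FBXO5, an inhibitor of the anaphase-promoting complex, fell by 1.52 and 1.39. HMOX1, CCNE1 and FBXO5 were lower with T4 in all 4 pairs. Among the 18 replication genes, the list to which CCNE1 belongs, 4 fell and 2 rose, and with quantile normalization 3 fell and 5 rose.

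Other named genes went the opposite way. B4GALT5, a galactosyltransferase of glycolipid synthesis, was at 7.74, 6.90, 10.9 and 17.8 FPKM with T4 at 2 to 20 µM and at 10.7, 5.52, 5.11 and 6.08 with T5 one step lower. Both compounds lay below DMSO, at 22.7, and T4 at the top dose was nearest to it. The difference rose by 1.85 ± 0.14 (limma adjusted p = 0.000913). FRMD6, an adaptor upstream of the Hippo pathway, was at 19.5, 10.4, 9.26 and 9.72 with T4 and at 31.2, 12.2, 5.95 and 4.65 with T5, and rose by 1.65 ± 0.14 (limma adjusted p = 0.00139; 1.1 with T5 interpolated).

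GINS1, a subunit of the replicative helicase, rose by 1.57 and ADIPOR2, an adiponectin receptor, by 1.59. Of 15 Fanconi and homologous recombination genes 6 rose, where 24.6% of all genes did, and 0 fell, with a median change of 0.50. BRCA1 was at 2.36, 2.86, 3.47 and 4.65 FPKM with T4 and at 3.25, 2.23, 2.25 and 2.29 with T5, and rose by 1.07 ± 0.16 (limma adjusted p = 0.00555; 0.52 and 0.0857 without the first pair). NEAT1, the RNA scaffold of paraspeckles, was at 17.6, 27.2, 29.3 and 37.2 with T4 and at 18.5, 18.9, 16.9 and 18.6 with T5. It was higher with T4 in the last 3 pairs, and the difference rose by 1.004 ± 0.14 (limma adjusted p = 0.00486; 0.47 and 0.0883 without the first pair). MALAT1, another abundant nuclear RNA, was higher with T4 in all 4 pairs, with a mean of 0.47 ± 0.11 (limma adjusted p = 0.206).

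Among the 20 cleavage and polyadenylation factors, the machinery that makes the 3′ ends, the mean shifted difference was called for 0, with a median of -0.05 against 0.02 over all genes. Along the pairs 3 rose and 2 fell, with a median change of 0.08; with median centring 3 rose and 6 fell, with a median of -0.12. Of all genes 24.6% rose and 12.8% fell without centring. With median centring 1486 of all 10600 genes rose and 2924 fell, with a median change of -0.10. WDR33, which binds the polyadenylation signal, was at 3.87, 2.12, 1.97 and 2.23 FPKM with T4 and at 6.12, 2.71, 1.52 and 1.56 with T5, and rose by 0.94 ± 0.15 (limma adjusted p = 0.00695). CPSF2 and CPSF7 rose by 0.72 and 0.57 (limma adjusted p of 0.0208 and 0.0155). All 3 calls were lost without the first pair, at 0.59, 0.25 and 0.51 (limma adjusted p of 0.0885, 0.323 and 0.0883). Those of CPSF2 and CPSF7 were also lost without the second pair (0.0711 and 0.0561), that of CPSF7 without the last pair (0.12) and with T5 interpolated (0.133), and that of CPSF2 with quantile normalization (0.0746).

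CLP1, a subunit of cleavage factor II, was at 15.2, 8.78, 4.26 and 1.51 FPKM with T4 and at 12.1, 13.8, 8.30 and 3.91 with T5, with DMSO at 7.40. It was above DMSO in the first pair and below it in the last, and the difference fell by 1.22 ± 0.24 (limma adjusted p = 0.0124; -0.38 and 0.166 without the first pair). RBBP6, which activates the cleavage reaction, changed by -1.1 (limma adjusted p = 0.00359; -0.63 and 0.0702 without the first pair). FIP1L1 and CSTF1 were lower with T4 in all 4 pairs, with means of -0.36 and -0.55.

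Apart from the changes of WDR33, CPSF2, CPSF7, CLP1 and RBBP6, no factor of the machinery was called in its mean or its change. NUDT21, the subunit of cleavage factor I that reads upstream sites, was at 48.1, 51.4, 52.2 and 50.9 FPKM with T4 and at 45.01, 50.7, 49.1 and 48.5 with T5. The mean difference was 0.07 ± 0.04, with a 95% interval of -0.03 to 0.17 before adjustment. PAPOLA, the main poly(A) polymerase, had a mean of 0.09 and an interval of -0.02 to 0.20. CPSF1, PABPN1, CPSF6 and SYMPK had means of 0.06, -0.05, 0.04 and 0.04. PCF11, a subunit of cleavage factor II, was lower with T4 in all 4 pairs, with a mean of -0.20 and an interval of -0.37 to -0.04 (limma adjusted p = 0.240). PAPOLG, another poly(A) polymerase, had a mean of -0.23 with an interval of -0.44 to -0.03, and CSTF2T one of -0.19 with -0.41 to 0.04.

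Complexes that process or end other transcripts gave mixed counts. Of 14 Integrator subunits, which cut small nuclear RNAs and paused transcripts, 5 rose and 2 fell, and of 17 nuclear RNA decay factors 5 rose and 1 fell, against 24.6% rising and 12.8% falling of all genes. With median centring 4 rose and 3 fell among the first, and 3 and 3 among the second. With that centring 1486 of all 10600 genes rose and 2924 fell. INTS2 rose by 1.24, from a difference of -0.45 to 0.77, and INTS6 changed by -1.13 (limma adjusted p = 0.00615; -0.55 and 0.0990 without the first pair). Of 15 SR proteins and CLK kinases 2 rose and 5 fell, among them SRSF4, up by 0.96, and SRSF2, SRSF5 and SRSF7, with changes of -0.86, -0.82 and -0.95.

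Among 17 elongation kinases and 7SK regulators 10 were lower with T4 in all 4 pairs, where 13.3% of all genes were. In all 4 pairs 1 was higher, where 11.3% of all genes were. At the same dose 6 of the 17 were called higher with T4 and 1 lower, where 25.2% and 7.13% of all genes were. The median of the list was 0.16 at the same dose and -0.16 in the shifted pairs. CDK7, the kinase of transcription factor IIH, was at 29.8, 16.96, 7.11 and 3.72 FPKM with T4 and at 34.6, 22.3, 10.9 and 6.57 with T5. Its differences were -0.21, -0.38, -0.56 and -0.68, with a mean of -0.46 ± 0.09 (limma adjusted p = 0.206), whereas at the same dose it was higher by 0.34 ± 0.08 (limma adjusted p = 0.0280). Along the pairs 3 of the 17 rose, CDK12 by 0.68, LARP7 by 0.82 and AFF4 by 1.03, and HEXIM1 and CDK7 fell. Over all genes 24.6% rose and 12.8% fell.

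Of 20 G2/M genes 17 were higher with T4 at the same dose and 0 lower, where 25.2% and 7.13% of all genes were, with a median of 0.52 against 0.05. In the shifted pairs the mean was called for 0, as for all genes, with a median of -0.03 against 0.02. In all 4 pairs 6 were lower and 2 higher, where 13.3% and 11.3% of all genes were. PLK1, a kinase of mitotic entry, was at 38.9, 27.1, 17.1 and 9.47 FPKM with T4 at 2 to 20 µM and at 36.95, 27.8, 16.1 and 7.80 with T5 one step lower, with differences of 0.07, -0.04, 0.08 and 0.25. The mean difference was 0.09 ± 0.06, with a 95% interval of -0.06 to 0.25, against 0.84 ± 0.11 at the same dose (limma adjusted p = 0.00687). With T5 2 steps lower the mean was -0.60.

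AURKA, another mitotic kinase, was at 32.6, 12.4, 4.54 and 1.81 FPKM with T4 and at 40.6, 18.5, 5.63 and 2.18 with T5. T4 was lower in all 4 pairs, with a mean of -0.32 ± 0.08 (limma adjusted p = 0.206), while at the same dose it was higher by 0.86 ± 0.05 (limma adjusted p = 0.00637). The difference rose along the pairs for 7 of the 20 genes, where 24.6% of all genes rose, and fell for 0, with CENPF, a kinetochore protein, up by 1.001 and BUB1B, a checkpoint kinase, by 0.97. With median centring 7 rose and 4 fell, where 1486 of all 10600 genes rose and 2924 fell. TOP1, the enzyme that relaxes supercoiled DNA, had a mean of 0.01, with a 95% interval of -0.20 to 0.22.

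For cytosolic ribosomal protein genes the calls depended on scaling. Along the pairs 24 of 29 fell and 0 rose, where 12.8% of all genes fell and 24.6% rose, with a median change of -0.32. Quantile normalization gave 2 falling, 3 rising and a median change of 0.08. Of 23 respiratory chain subunits 8 fell and 0 rose, and with quantile normalization 4 fell and 1 rose. RPL13 was at 46.97, 38.9, 36.4 and 41.1 FPKM with T4 and at 34.4, 39.8, 46.8 and 65.1 with T5, and changed by -1.07 ± 0.10 (limma adjusted p = 0.00180; -0.62 and 0.0511 without the first pair). RPL13 was at 52.96 FPKM with T5 at 20 µM, below its value in the 1 library at 10 µM. For AP-1 factors 8 fell and 0 rose also with quantile normalization, and 9 and 0 with median centring. Of all 10600 genes 1508 fell and 1713 rose with quantile normalization, and 2924 and 1486 with median centring. Of the markers used to check the line, 3 of 4 epithelial and 3 of 6 bone and mesenchymal markers fell, with 0 and 1 rising. With quantile normalization 0 of the 6 bone and mesenchymal markers fell. Their part in the other results was not tested.

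**Figure D4:**
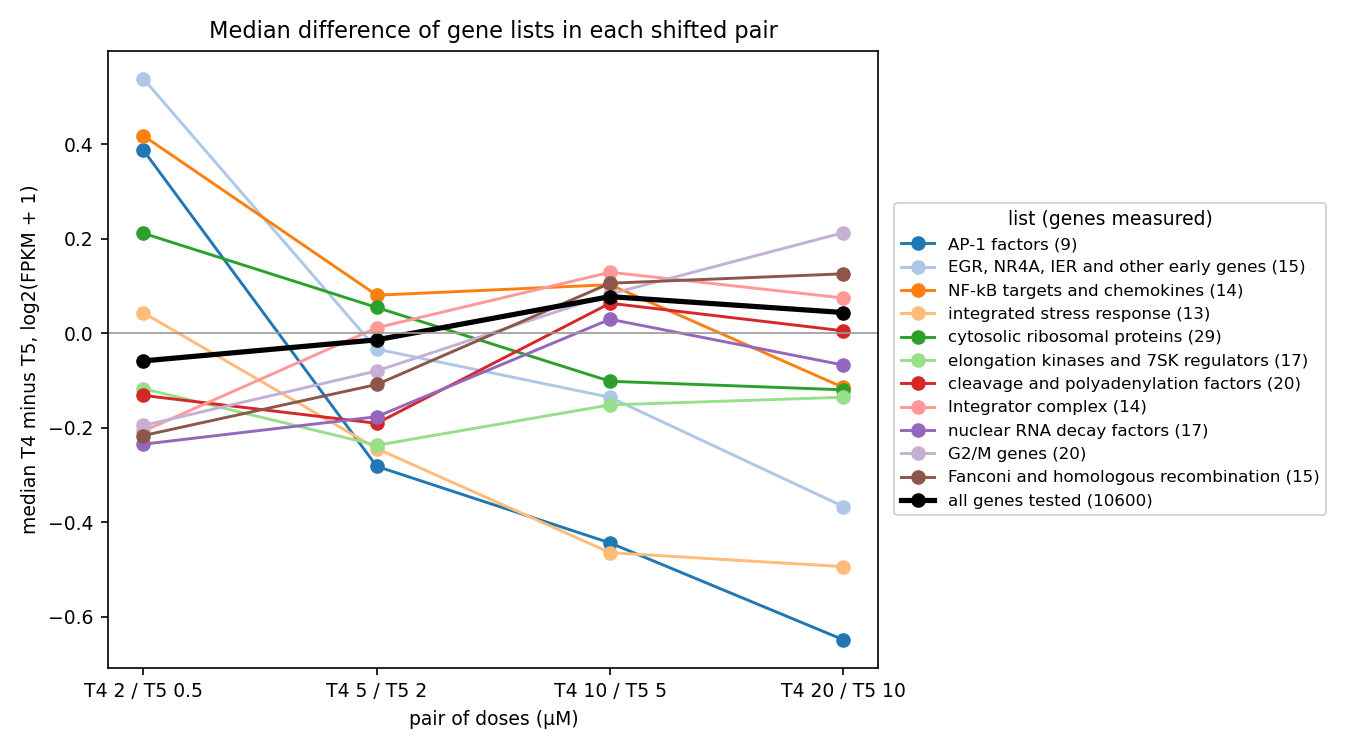
Median T4 minus T5 on the log2(FPKM + 1) scale for 11 gene lists and for all 10600 genes in each of the 4 shifted pairs (doses in µM), with the number of genes measured in each list. AP-1 factors went from a median of 0.39 in the first pair to -0.65 in the last, while all genes stayed between -0.06 and 0.08.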

How the data were processed

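FPKM values had been deposited by the authors as a matrix with a column for each of the 16 libraries. GSNAP, Cufflinks, hg19 and GRCh37 appear without roles or versions per the submitters' processing notes, and annotation, filters, strand and poly(A) selection are not stated in what was used here, so overlapping genes on opposite strands cannot be told apart. Once 2 inner header lines, 1 incomplete line and 220 identical repeats were dropped, 25270 genes remained, of which 4531 were at 0 in every library. An exact 0 can be a failed estimate. Relative depth was read from ratios to DMSO among values under 0.2 FPKM, in windows of 0.02 on the log2 scale.

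A pseudocount of 1 was added to the deposited FPKM before taking log2, and genes averaging at least 1 FPKM were kept. Paired differences were tested over all 10600 genes with limma 3.58.1 in R 4.3.3, using a trended variance prior; p-values are 2-sided, with a Benjamini-Hochberg threshold of 0.05. A mean over 4 pairs leaves 3 residual degrees of freedom and a change along the pairs 2. An exact sign-flip test over 4 pairs cannot go below a p of 0.125 and was not used. Intervals are 95% intervals of the fit for a single gene. The fits were tested on simulated data with independent noise. For the mean, the simulated differences did not change along the pairs, unlike those of many genes here. For the change, the noise was drawn from the variance prior that limma fitted to these data. The simulation therefore does not show how the fits perform on the real libraries. Plots used matplotlib 3.10.9 in Python 3.11.15.

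Genes were picked for naming by rule, and not all of them are described above. The rule took called genes and those of one sign with differences of at least 0.5, up to 12 in each direction. From every list it took the 3 genes furthest from 0 in their mean. It also took all cleavage and polyadenylation factors, FOS, EGR1, CXCL8, CDKN1A, MDM2 and TOP1, and 4 genes in each direction at the same dose. Others were added after seeing the data: the 12 lower and 8 higher genes with the largest smallest difference, genes of one sign in both comparisons, those with the largest changes along the pairs, and further list members. Short RNAs, pseudogenes and genes without a symbol were passed over; 69 short RNAs were tested, and they made up 14 of the 20 highest and 18 of the 20 lowest means. The pairs and the lists were chosen with earlier results of these data known, and the change along the pairs and its alternatives were added after seeing the data. Alternatives covered the pseudocount, the filter, scaling, the variance prior, pairing, pair order, the T5 dose and leaving out each pair.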

Additional observations from a re-analysis of the deposited data

How the results depend on the processing

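With 1 library per dose, no depth in the files and doses that differ within a pair, precision is limited by the number of libraries. Where a count below moved, the cause was not tested, except that the stricter filters tested fewer genes. By replicate number, no paired analysis was possible because each group holds 1 library; the pairing tested throughout is by dose.

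The mean shifted difference gave 0 calls in either direction in every other setting run, but 1315 higher and 1834 lower with pair order as a covariate, and 0 to 266 higher and 0 to 622 lower when a pair was left out, the highest without the first pair. At the same dose the counts of genes higher and lower with T4 were 1494 and 325 with all genes at any FPKM above 0, 1423 and 500 with a mean FPKM of at least 5, 1344 and 2508 with median centring, 1551 and 1233 with quantile normalization, and 0 and 0 without pairing. With a pair left out they ran from 976 to 1928 and from 197 to 657, lowest without 5 µM. The change along the pairs gave 0 rising and 0 falling with all genes at any FPKM above 0, 1070 rising with a mean FPKM of at least 5, 1486 rising and 2924 falling with median centring, 1713 rising with quantile normalization and 1669 rising with T5 interpolated at 0.4 times the T4 dose. With a pair left out 92 to 2457 rose and 210 to 1616 fell, lowest without the first pair; without the second 1329 rose, and without the last 886 fell.

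Genes at least 0.5 lower in every pair numbered 0 with median centring, 2 with quantile normalization and 11 with a pseudocount of 0.1, which also gave 1 higher, and 0 when each difference had to reach 1. With a pseudocount of 0.1 the genes at least 2-fold apart numbered 39 higher in the first pair, 24 lower in the second, 36 (higher) and 211 (lower) in the third, and 121 (higher) and 524 (lower) in the last. With a mean FPKM of at least 5 those higher with T4 numbered 5 in the second pair and 12 in the last. The mean of TOP1, not called, turned to -0.000672 with quantile normalization and -0.23 with T5 2 steps lower, and ran from -0.047 to 0.091 with a pair left out, and that of PLK1 to -0.60 with T5 2 steps lower.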
